A study of Mus musculus with 6 samples.

Results

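The cytochrome P450 genes of the mouse heart were examined, among them Cyp2b10, in mice infused with angiotensin II (Ang II) with and without tectochrysin (Tec), a plant flavonoid. Members were genes of the deposited table whose symbol starts with Cyp followed by a family number, a subfamily letter and a gene number. They also had to be listed there with a protein-coding transcript type, which gave 47 of 30914 genes. Another 11 rows with such symbols were listed without that type and left out, among them Cyp2c29, Cyp27b1 and Cyp4f39. An expressed member had at least 0.5 FPKM, the fragment count scaled to transcript length and library size, in at least 3 of the 6 libraries, and 17 of the 47 members met this limit. RNA was sequenced from the hearts of 3 mice of the Ang II group and 3 mice of the Ang II + Tec group. All were wild-type male C57BL/6J mice, 8 weeks old at the start, and all carried an osmotic pump that infused Ang II for 4 weeks at 1 μg/kg/min. The Ang II + Tec group also received intraperitoneal Tec at 5 mg/kg each day during the last 2 weeks. Libraries from mice without Ang II, or with Tec alone, were not analysed here, so each difference below is between these Ang II-infused groups. The sample titles say heart and the paper says cardiac tissue, without naming the part of the heart taken. In RNA of such tissue, a different part taken, fewer cells of a type and less RNA per cell cannot be told apart.

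Cytochrome P450 enzymes are haem proteins that insert an oxygen atom into lipids, hormones or foreign compounds, with electrons passed on by P450 reductase in the endoplasmic reticulum or by ferredoxin in mitochondria. Families 1 to 3 are best known for drug metabolism in the liver, where foreign compounds induce them through receptors such as the aryl hydrocarbon receptor (AhR), the constitutive androstane receptor (CAR) and the pregnane X receptor. In the heart the P450 enzymes that are studied most turn arachidonic acid into epoxides or hydroxylated fatty acids, which act on vessels and muscle cells. Other members make or clear retinoic acid, vitamin D, oxysterols and steroid hormones.

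Cyp2b10 (ENSMUSG00000030483), a drug-metabolising enzyme that serves as the classical CAR target in mouse liver, lies on the forward strand of chr7:25897620-25926624 (GRCm38). Its upstream sequence is shown because Cyp2b10 had the largest difference between the groups of all 17 expressed members. Those of its near relative Cyp2b13, which was almost at 0 in these hearts, and of the AhR target Cyp1a1 are shown for comparison. Each line holds the 250 bases before the RefSeq start (GRCm38.p6, 5′ to 3′, forward strand in all 3 cases), at chr7:25897408-25897657 for Cyp2b10, chr7:26061245-26061494 for Cyp2b13 and chr9:57697363-57697612 for Cyp1a1. Capitals mark the letters of 6 motifs searched on both strands, of which those present here are the AhR core GCGTG, which reads CACGC on the other strand, the C/EBP-type site TTGCNNAA, the D-box TTATGNAA, the nuclear receptor half-site AGGTCA and the TATA box TATAAA.
Cyp2b10: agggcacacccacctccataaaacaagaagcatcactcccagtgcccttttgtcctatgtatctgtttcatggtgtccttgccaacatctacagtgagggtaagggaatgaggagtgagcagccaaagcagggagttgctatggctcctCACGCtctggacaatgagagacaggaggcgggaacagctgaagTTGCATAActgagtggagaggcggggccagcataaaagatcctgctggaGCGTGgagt
Cyp2b13: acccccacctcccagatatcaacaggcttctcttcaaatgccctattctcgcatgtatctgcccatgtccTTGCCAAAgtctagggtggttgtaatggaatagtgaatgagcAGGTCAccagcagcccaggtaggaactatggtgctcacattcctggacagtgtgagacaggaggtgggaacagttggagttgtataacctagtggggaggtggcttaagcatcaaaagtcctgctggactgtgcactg
Cyp1a1: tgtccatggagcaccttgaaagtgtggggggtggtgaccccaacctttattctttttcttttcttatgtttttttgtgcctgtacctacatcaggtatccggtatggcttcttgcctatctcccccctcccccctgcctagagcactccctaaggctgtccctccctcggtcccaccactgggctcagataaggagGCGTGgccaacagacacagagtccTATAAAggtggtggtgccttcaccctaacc

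In Cyp2b10 the AhR core stood 101 bases before the RefSeq start on the reverse strand and 9 bases before it on the forward strand. The annotated Cyp2b10 gene starts at chr7:25897620, before the end of this window, so the forward-strand core lies inside the annotated gene. The Cyp1a1 window likewise lies inside its annotated gene (chr9:57687928-57703824). The C/EBP-type site began 58 bases before the start, and its 8 letters also match the D-box, the site of clock output factors, when read on the reverse strand. The Cyp2b13 sequence was 71.9% identical to that of Cyp2b10 in a global alignment, but held neither the AhR core nor the D-box, and its C/EBP-type site and half-site stood elsewhere. In Cyp1a1 the AhR core stood 54 bases and the TATA box 30 bases before the start. RefSeq windows were found for 38 of the 47 members and for 13 of the 17 expressed ones. The AhR core was in 7 of these 13 windows (Cyp1a1, Cyp1b1, Cyp20a1, Cyp2b10, Cyp2j9, Cyp4f16 and Cyp4v3), against 28.2% of all 32851 windows. The C/EBP-type site was in 3 of 13 (9.56% of all windows), the D-box in 2, Cyp2b10 and Cyp27a1 (3.07%), the TATA box in 3 (12.4%), the E-box CACGTG in 2 (6.02%) and the half-site in 0 (14.0%). These matches describe the letters of each window and were not tested as binding sites.

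The libraries differed in ways that the group labels do not give. The sum of 9 fibroblast markers was 807, 1032 and 216 FPKM in Ang II replicates 1 to 3 and 174, 299 and 204 FPKM in the Ang II + Tec group, so Ang II replicate 3 lay within the Ang II + Tec range. The atrial gene Myl7 was at 0 or 1.58 FPKM in 3 libraries and at 332, 419 and 1040 FPKM in Ang II replicates 2 and 1 and Ang II + Tec replicate 2. The 8 genes listed as ventricular cardiomyocyte markers summed to between 9156 and 11300 FPKM in every library. The share of ventricle in each sample was not tested. Mitochondrial transcripts took 40.1% to 52.5% of the FPKM. The depth relative to the other libraries, read from the spacing of the lowest values, ranged from 0.934 to 1.25. The 6 hearts were separate animals, and the median log2 fold change of the 13089 tested genes was -0.17.

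Cyp2b10 was nearly silent in the Ang II group and was present in every Ang II + Tec heart. Its FPKM was 0.28, 0 and 0.11 with Ang II and 2.02, 2.79 and 1.79 with Ang II + Tec. The lowest Ang II + Tec value was thus far above the highest Ang II value, and the groups did not overlap. Of all tested genes, 2.90% were higher with Tec without overlap. The mean was 0.13 ± 0.141 FPKM (SD, n = 3) against 2.20 ± 0.524 FPKM (SD, n = 3), a ratio of means of 16.9. On the scale of log2(FPKM + 1) the log2 fold change was 1.50 (standard error 0.15), and leaving out each library in turn gave 1.37 to 1.59. This scale understates changes at low levels, and with 0.1 or 0.01 added in place of 1 it was 3.50 or 4.95. Cyp2b10 was singled out because of this difference, so these values are a description and no p-value is given. A single fragment on its longest transcript, of 1916 bases, corresponded to about 0.0255 to 0.0342 FPKM, so the Ang II values rest on few fragments.

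**Figure D1:**
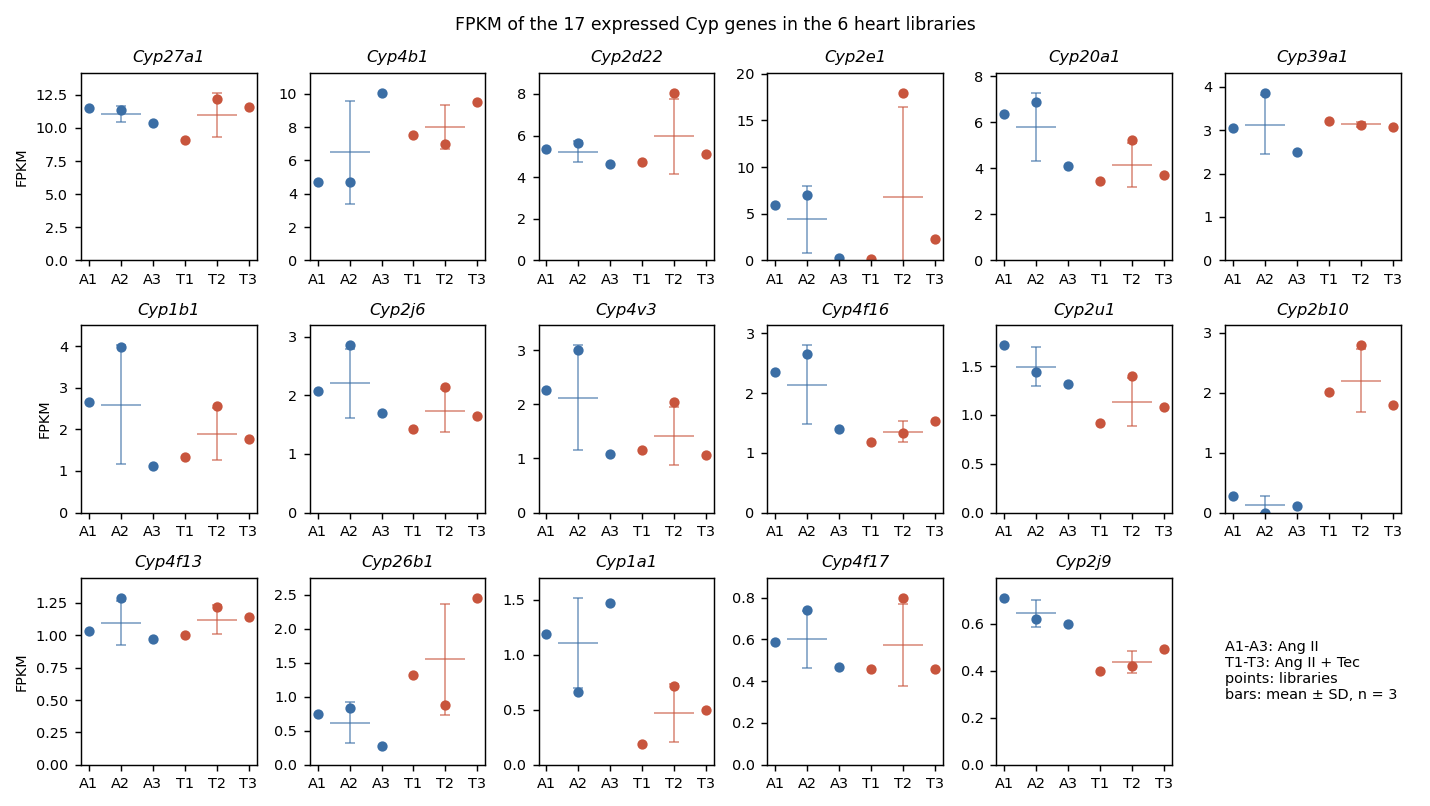
FPKM (linear axes from 0) of each of the 17 expressed Cyp genes in the 3 Ang II libraries (A1 to A3, blue) and the 3 Ang II + Tec libraries (T1 to T3, red), with the mean ± SD of each group as a bar. The lower end of the bar is hidden below 0 for Cyp2e1 in the Ang II + Tec group and for Cyp2b10 in the Ang II group. Cyp2b10 lay between 0 and 0.28 FPKM in the Ang II group and between 1.79 and 2.79 in the Ang II + Tec group, while most other members overlapped between the groups.

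Reads of relatives can be shared, and 8.70% of the 50-base stretches of Cyp2b10 transcripts also occur in other genes, most of them in Cyp2b13 (6.94%). Cyp2b13 itself was at 0.02 FPKM in Ang II + Tec replicate 1 and at 0 in the other libraries. Of the other CAR or pregnane X receptor targets in the table, Cyp3a11 and Cyp2c29, the latter not among the 47 members, did not exceed 0.03 FPKM in any library. Cyp3a13, a Cyp3a gene active outside the liver, was below the limit of expression at 0.12, 0.14 and 0.26 FPKM with Ang II and 0.32, 0.27 and 0.41 FPKM with Ang II + Tec. Its groups did not overlap, with the highest Ang II value just below the lowest Ang II + Tec value. Of all tested genes, 2.90% were higher with Tec without overlap. The receptor gene Nr1i3, which encodes CAR, was at 0.01 to 0.06 FPKM in 5 libraries and 0.38 FPKM in Ang II + Tec replicate 2, and Nr1i2 (pregnane X receptor) was not analysed here.

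Liver RNA in the hearts was looked for with 13 hepatocyte markers. They summed to 2.79 to 6.81 FPKM in the Ang II group and 4.08 to 8.13 FPKM in the Ang II + Tec group. Ahsg and Apoa2 were the 2 of the 13 that passed the limit of expression. The largest part of each sum was Ahsg, at 4.00, 5.82 and 1.65 FPKM with Ang II and 1.36, 6.96 and 3.19 FPKM with Ang II + Tec. Albumin (Alb), the defining one, was at 0.36, 0.02 and 0 FPKM in Ang II + Tec replicates 1 to 3, where Cyp2b10 was at 2.02, 2.79 and 1.79 FPKM. With Ang II alone, Alb was at 0.08, 0 and 0.05 FPKM. Like Alb, the fibrinogen genes Fga, Fgb and Fgg were highest in Ang II + Tec replicate 1, at 0.31, 0.24 and 0.16 FPKM. Apoh and Ambp were at 0 in that library. The part of liver RNA in the Cyp2b10 values was not tested.

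None of the neighbours of Cyp2b10 on chromosome 7 differed as much between the groups. Besides Cyp2b10, 33 genes of the table reached into the 500 kb on either side, 13 of them expressed, and their differences in mean log2(FPKM + 1) lay between -0.53 for Axl and 0.56 for Bckdha, against 1.50 for Cyp2b10. The low-level genes BC026762 and Cyp2b27-ps, named here after their values were seen, were at 0 in the 3 Ang II libraries. BC026762 was at 0.11, 0.09 and 0.08 FPKM and Cyp2b27-ps at 0.04, 0 and 0.09 FPKM in those of the Ang II + Tec group. Cyp2s1, an epithelial P450 on the same chromosome, was below the limit at 0.05, 0.20 and 0.04 FPKM with Ang II and 0.05, 0.91 and 0.19 FPKM with Ang II + Tec, and stood out in 1 library alone.

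**Figure D2:**
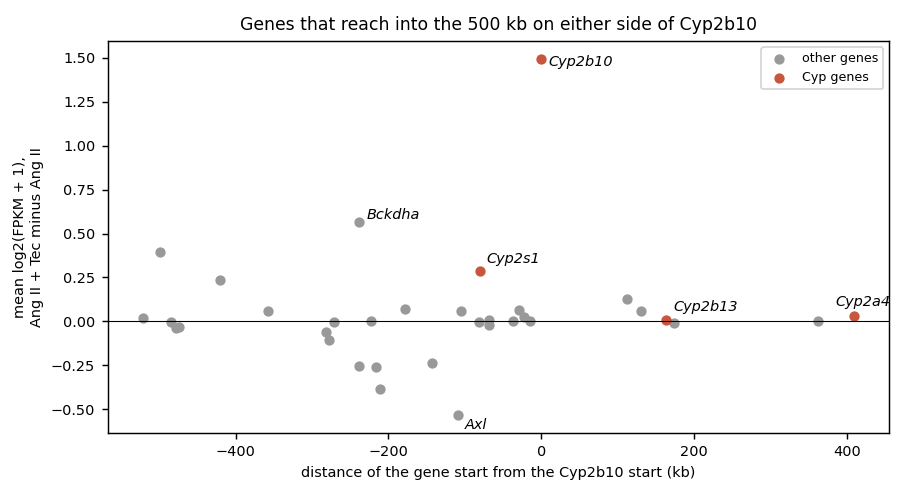
Difference in mean log2(FPKM + 1), Ang II + Tec minus Ang II, for Cyp2b10 and 33 neighbouring genes against the distance of each gene's start from the Cyp2b10 start in kb. Red points are Cyp members and grey points other genes. Cyp2b10 stands at 1.50, and its neighbours lie between -0.53 (Axl) and 0.56 (Bckdha).

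The remaining expressed members differed less between the groups than Cyp2b10. Cyp2b10 and Cyp2j9 passed the limit of expression through 1 group alone, where they were high, and the former was singled out for its difference, so neither is counted as a test result. The limma fit called 24 of 13089 genes at an adjusted p-value under 0.05 (0.183%), 13 of them higher with Tec (0.0993%), and 0 of the other 15 expressed members. At an unadjusted p-value under 0.05 there were 2 of these 15, Cyp1a1 and Cyp26b1, against 18.6% of all tested genes. The mean of 9 of the 15 was lower with Tec, against 80.0% of all tested genes, and their median log2 fold change was -0.03 against -0.17 over all tested genes. Over all 17 expressed members 10 were lower, and 8 once each library was scaled by its median of ratios, with a median of 0.06. The groups did not overlap for 1 of the 15, against 21.8% of tested genes. This was Cyp26b1, higher with Tec (2.90% of all genes did so, and 18.9% were lower without overlap). With 3 hearts against 3, the smallest p that exact permutation of 1 gene can reach is 0.1. The limma fit is a model-based test without permutation and can reach lower values. The number of calls changed when a single library was left out, and each such fit also had fewer hearts. The cause of the change was not tested. Without Ang II replicate 3, 3776 of the 13089 genes were called, among them Cyp4b1, Cyp4f16 and Cyp20a1 of the 15. Without any one of the other 5 libraries, 2 to 7 genes and none of the 15 were called.

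**Figure D3:**
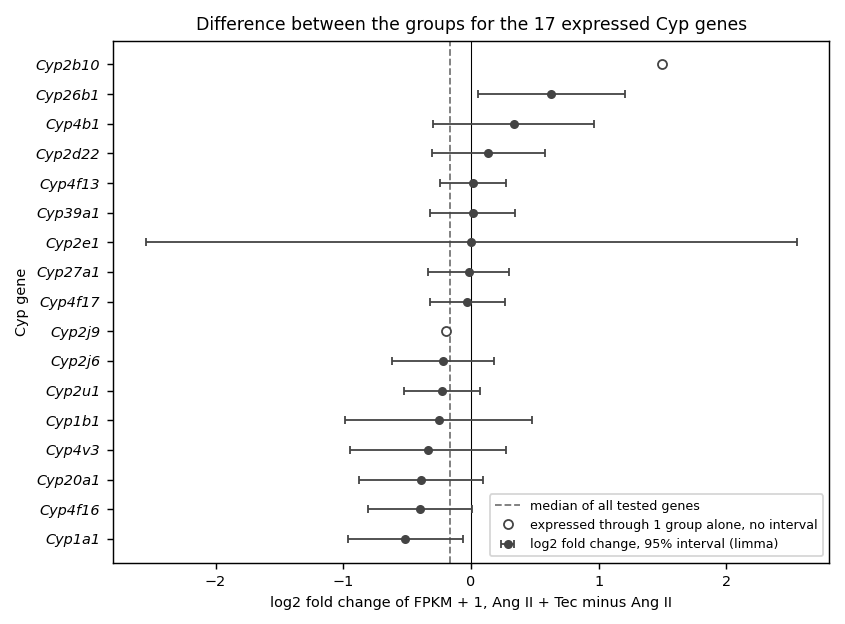
Log2 fold change of FPKM + 1 (Ang II + Tec minus Ang II) of the 17 expressed Cyp genes, with 95% intervals from limma. Open circles, without an interval, are Cyp2b10 and Cyp2j9, which passed the limit of expression through 1 group alone. The dashed line is the median of all tested genes (-0.17). Cyp2b10 has the highest value, 1.50, and the interval of Cyp2e1 spans -2.55 to 2.55.

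The P450 genes listed as AhR targets and found in the table, Cyp1a1 and Cyp1b1, were both expressed, and neither passed the test. Tiparp, an AhR target outside the P450 family, had a higher mean with Tec and is given below with the receptor genes. Cyp1a1, which oxidises planar aromatic compounds and is the classical AhR target, was at 1.19, 0.66 and 1.47 FPKM with Ang II and 0.19, 0.72 and 0.50 FPKM with Ang II + Tec. The groups overlapped through Ang II replicate 2 and Ang II + Tec replicate 2. The log2 fold change was -0.52 (standard error 0.19, limma adjusted p = 0.240), so the lower mean with Tec did not pass the test. Cyp1b1, which metabolises oestrogens and fatty acids and is active in mesenchymal cells, was at 2.67, 3.98 and 1.13 FPKM with Ang II and 1.34, 2.56 and 1.77 FPKM with Ang II + Tec. Its lowest and highest values were both in the Ang II group (log2 fold change -0.25, standard error 0.31, limma adjusted p = 0.634), and the value turned to 0.03 once Ang II replicate 2 was left out. Its order over the libraries followed that of collagen Col1a1 in part, in that Ang II replicates 1 and 2 were highest for both. These 2 libraries also lay above the other 4 for 49.7% of all tested genes. The share of fibroblasts in this pattern was not tested. The receptor Ahr was at 1.03 ± 0.155 FPKM (SD, n = 3) with Ang II and 0.847 ± 0.176 FPKM (SD, n = 3) with Ang II + Tec.

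Of the 3 retinoic acid-clearing enzymes, Cyp26b1 was expressed. It was at 0.75, 0.84 and 0.27 FPKM with Ang II and 1.32, 0.88 and 2.46 FPKM with Ang II + Tec. The groups did not overlap, although Ang II + Tec replicate 2 stood only just above Ang II replicate 2. The fitted difference was 0.63 on the log2 scale (standard error 0.25, limma adjusted p = 0.249). It stayed positive under all 17 alternatives in which it was tested. Without overlap, only the alternatives that rescaled the libraries could have changed its sign. Cyp26a1 was below the limit at 0.89, 1.62 and 0.06 FPKM with Ang II and 0.14, 0.15 and 0.15 FPKM with Ang II + Tec. It was high in Ang II replicates 1 and 2 alone, the libraries with the highest fibroblast marker sums. These 2 libraries lay above the other 4 for 49.7% of all tested genes, and the share of fibroblasts was not tested. The third enzyme, Cyp26c1, did not exceed 0.07 FPKM.

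The enzymes of fatty acid epoxidation and hydroxylation formed the largest group, with 16 of the 28 listed genes in the table, 9 of them expressed. Of the 9, 0 were called, 0 had an unadjusted p-value under 0.05, 6 had a lower mean with Tec, and the median log2 fold change was -0.19 against -0.17 over all tested genes. Cyp2j9, an arachidonic acid epoxygenase, was at 0.71, 0.62 and 0.60 FPKM with Ang II and 0.40, 0.42 and 0.49 FPKM with Ang II + Tec. All Ang II values lay above all Ang II + Tec values, as for 18.9% of all tested genes, with a log2 fold change of -0.19 (standard error 0.09). Cyp2j9 passed the limit of expression through the Ang II group alone, as Cyp2b10 did through the Ang II + Tec group, so its values are a description without a test. Its relative Cyp2j6 was at 2.07, 2.85 and 1.69 FPKM with Ang II and 1.43, 2.14 and 1.64 FPKM with Ang II + Tec, and these ranges overlapped (log2 fold change -0.22, limma adjusted p = 0.455).

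Cyp4f16, of a subfamily that hydroxylates leukotrienes and fatty acids, was at 2.36, 2.66 and 1.40 FPKM with Ang II and 1.18, 1.34 and 1.53 FPKM with Ang II + Tec. Only Ang II replicate 3 reached into the Ang II + Tec range. The log2 fold change was -0.40 (standard error 0.17, limma adjusted p = 0.276). With Ang II replicate 3 left out it was -0.58 (limma adjusted p = 0.0155), in a fit that called 3776 of 13089 genes. Of the 50-base stretches of Cyp4f16, 16.3% also occur in Cyp4f37, which was listed at 0 in all 6 libraries. Cyp4f13 and Cyp4f17, of the same subfamily, differed by 0.02 (95% interval -0.24 to 0.27) and -0.03 (-0.32 to 0.27) on the log2 scale. The fatty acid hydroxylase Cyp2u1 was at 1.71, 1.44 and 1.32 FPKM with Ang II and 0.92, 1.40 and 1.08 FPKM with Ang II + Tec, which overlapped (log2 fold change -0.23, limma adjusted p = 0.343). Its exons overlap those of the antisense gene 4930534D22Rik over 548 bases, whose reads cannot be told apart from its own without the strand. Cyp4v3, another fatty acid hydroxylase, was at 2.26, 3.01 and 1.09 FPKM with Ang II and 1.16, 2.04 and 1.07 FPKM with Ang II + Tec (log2 fold change -0.34, limma adjusted p = 0.460), and shares 313 exon bases with Gm45753.

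Cyp4b1, which acts on short fatty acids and foreign compounds, was the second most abundant member. It was at 4.73, 4.68 and 10.03 FPKM with Ang II and 7.55, 7.01 and 9.52 FPKM with Ang II + Tec. Ang II replicate 3 was the highest of all 6 libraries, and the other Ang II libraries were the lowest. The fitted difference on the log2 scale was 0.34 (standard error 0.27, limma adjusted p = 0.471) with all libraries. It was 0.65 (limma adjusted p = 0.0169) without Ang II replicate 3, in the fit that called 3776 of 13089 genes.

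Cyp2e1, which oxidises ethanol and fatty acids and is abundant in liver and fat, varied more than any other expressed member. It was at 5.90, 7.00 and 0.26 FPKM with Ang II and 0.14, 17.91 and 2.24 FPKM with Ang II + Tec, a range of 128-fold with both ends in the Ang II + Tec group. The log2 fold change was 0.00 (standard error 1.09, 95% interval -2.55 to 2.55), which leaves differences of several-fold in either direction undetectable. Its order over the 6 libraries was the same as that of the adipocyte hormone gene Adipoq, which was at 1.20, 5.16 and 0.20 FPKM with Ang II and 0.05, 16.19 and 0.42 FPKM with Ang II + Tec. Not all adipocyte markers shared this order, as Ang II replicate 2 was lowest for Plin4 and lay below Ang II replicate 1 for Cidea. The 3 highest libraries of Cyp2e1, in which Myl7 was also high, were the 3 highest for 42.4% of all tested genes. The sum of 10 adipocyte markers was 49.6 to 75.2 FPKM with Ang II and 35.7, 196 and 51.8 FPKM with Ang II + Tec, and 6 of the 10 were expressed. The brown-fat gene Ucp1 was at 18.29 FPKM in Ang II + Tec replicate 2, at 0.62 FPKM in Ang II replicate 2 and at 0 in the others. The part of fat tissue in the Cyp2e1 values was not tested.

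**Figure D4:**
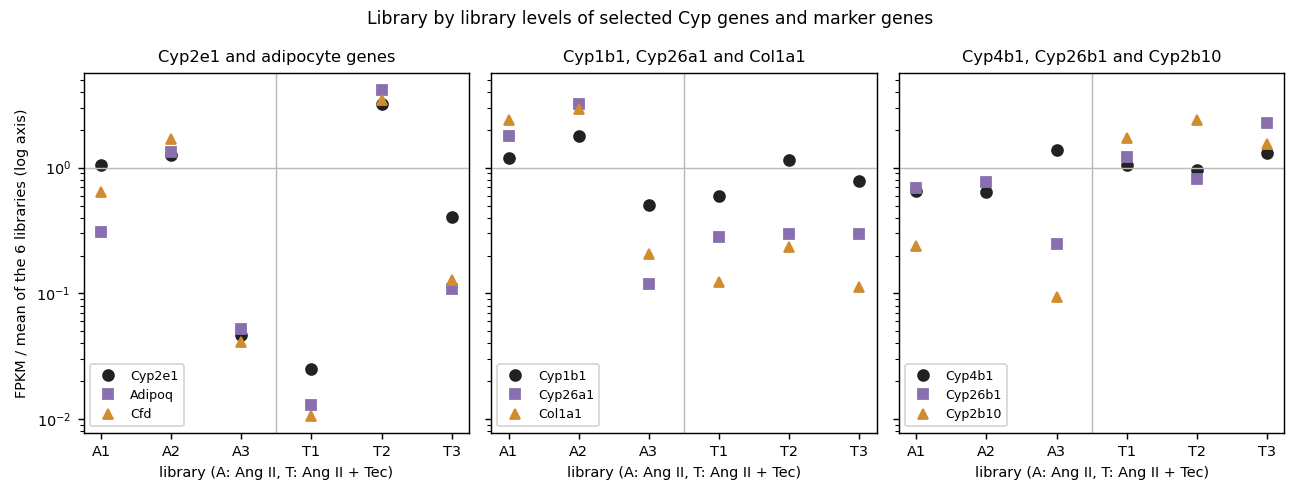
FPKM of selected genes divided by their mean over the 6 libraries (log axis), for Cyp2e1 with the adipocyte genes Adipoq and Cfd (left), Cyp1b1 and Cyp26a1 with collagen Col1a1 (middle), and Cyp4b1, Cyp26b1 and Cyp2b10 (right), in Ang II (A1 to A3) and Ang II + Tec (T1 to T3) libraries. Cyp2e1 and Adipoq share 1 order of libraries, and Cyp2b10, whose value of 0 in A2 cannot be drawn, lies above its mean in each Ang II + Tec library and below it in the others.

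The expressed enzymes of sterol and vitamin D metabolism differed by less than the spread between hearts. Cyp27a1, the mitochondrial sterol hydroxylase that also acts on vitamin D, was the most abundant member, above 79.4% of all tested genes by its mean. It was at 11.50, 11.32 and 10.36 FPKM with Ang II and 9.12, 12.22 and 11.60 FPKM with Ang II + Tec. The groups overlapped, and the log2 fold change was -0.02 (95% interval -0.33 to 0.30). Cyp39a1, a hydroxylase of oxysterols, was at 3.04, 3.85 and 2.50 FPKM with Ang II and 3.20, 3.13 and 3.07 FPKM with Ang II + Tec (log2 fold change 0.01, 95% interval -0.32 to 0.35). Cyp7b1, another oxysterol hydroxylase, was just below the limit at 0.57, 0.78 and 0.40 FPKM with Ang II and 0.05, 0.27 and 0.36 FPKM with Ang II + Tec. Its groups did not overlap, being lower with Tec, as for 18.9% of all tested genes, and no test was made below the limit. Of the vitamin D enzymes Cyp2r1 and Cyp27b1 and the brain cholesterol hydroxylase Cyp46a1, Cyp46a1 was the highest at 0.04 to 0.35 FPKM.

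Among the members with no settled role in the heart, Cyp2d22, a drug-metabolising enzyme, was at 5.36, 5.64 and 4.65 FPKM with Ang II and 4.73, 8.03 and 5.11 FPKM with Ang II + Tec. The groups overlapped, with the highest value in Ang II + Tec replicate 2 (log2 fold change 0.14, 95% interval -0.31 to 0.58). Cyp20a1, whose substrate is not settled, was at 6.38, 6.88 and 4.11 FPKM with Ang II and 3.47, 5.25 and 3.73 FPKM with Ang II + Tec. Ang II replicate 3 lay between the Ang II + Tec values (log2 fold change -0.39, standard error 0.21, limma adjusted p = 0.326). Leaving that library out gave -0.58 (limma adjusted p = 0.0356), in the fit that called 3776 of 13089 genes.

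Most of the family was low in the heart. Of the 17 expressed members 4 had a mean of at least 5 FPKM (Cyp27a1, Cyp4b1, Cyp2d22 and Cyp2e1), 10 had 1 to 5 FPKM and 3 were under 1 FPKM, with a median of 1.77 FPKM against 3.46 FPKM over all tested genes. Of the 30 members below the limit, 4 were at 0 in all 6 libraries (Cyp2c23, Cyp2d26, Cyp21a1 and Cyp4f37), 15 were above 0 but never reached 0.1 FPKM, 7 reached 0.1 but not 0.5 FPKM, and 4 reached 0.5 FPKM in 1 or 2 libraries (Cyp26a1, Cyp4f18, Cyp7b1 and Cyp2s1). Just inside the limit, the third-highest library was at 0.59 FPKM for Cyp4f17 and 0.60 FPKM for Cyp2j9. Just outside, it was at 0.42 FPKM for Cyp4f18, an enzyme that inactivates leukotriene B in neutrophils, and 0.40 FPKM for Cyp7b1. Steroid hormone synthesis had 3 members in the table, Cyp11a1, Cyp17a1 and Cyp21a1, none of them expressed and none above 0.07 FPKM.

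The P450 genes outside the naming rule were prostacyclin synthase (Ptgis), the sterol demethylase Cyp51 and thromboxane synthase (Tbxas1). Ptgis and Cyp51 were expressed, both with a lower mean with Tec, and 0 of the 2 were called. Cyp51 was at 3.51, 4.67 and 1.87 FPKM with Ang II and 1.98, 2.07 and 1.66 FPKM with Ang II + Tec, so Ang II replicate 3 lay within the Ang II + Tec range (log2 fold change -0.53, limma adjusted p = 0.282). For Ptgis the log2 fold change was -1.12 (standard error 0.66, limma adjusted p = 0.365).

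The partners of P450 enzymes were present throughout. All 13 redox and haem genes found in the table were expressed and 0 were called. At an unadjusted p-value under 0.05, 1 was higher and 2 were lower with Tec, against 18.6% of all tested genes in either direction. The mean of 10 was lower with Tec, against 80.0% of all tested genes, and the median log2 fold change was -0.26. P450 reductase (Por) differed by 0.11 on the log2 scale (95% interval -0.42 to 0.63). Alas1, the first enzyme of haem synthesis, was at 17.9 ± 2.74 FPKM (SD, n = 3) with Ang II and 13.5 ± 0.728 FPKM (SD, n = 3) with Ang II + Tec (log2 fold change -0.38, limma adjusted p = 0.234). The haem-degrading Hmox1 was at 8.87 ± 3.09 FPKM (SD, n = 3) and 4.01 ± 0.792 FPKM (SD, n = 3), with a log2 fold change of -0.94 (limma adjusted p = 0.200).

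Of the 17 receptor genes found, 10 were expressed, 0 were called and 7 had a lower mean with Tec (median log2 fold change -0.16). The lowest p-values were those of Rxrb, a retinoid X receptor (log2 fold change -0.35, limma adjusted p = 0.229), and Tiparp, an AhR target that represses AhR (log2 fold change 0.40, limma adjusted p = 0.260). Of 15 eicosanoid enzymes 11 were expressed and 0 called, with 7 lower (median -0.12). Prostaglandin D synthase (Ptgds) had a log2 fold change of 0.79 (limma adjusted p = 0.169) and Alox5ap, which presents arachidonic acid to lipoxygenase, one of -0.80 (limma adjusted p = 0.188). The epoxide hydrolase Ephx2, which clears the epoxides made by P450 enzymes, differed by 0.24 (95% interval -0.08 to 0.56).

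Of the 29 other xenobiotic genes found, 22 were expressed, 0 were called and 8 had a lower mean with Tec, with a median log2 fold change of 0.08 against -0.17 over all tested genes. At an unadjusted p-value under 0.05, 4 were higher and 1 was lower, against 18.6% of all tested genes in either direction. The glutathione transferase Gsta1 was at 0.70, 0.33 and 0.12 FPKM with Ang II and 1.19, 1.02 and 1.19 FPKM with Ang II + Tec. All Ang II + Tec values lay above all Ang II values, as for 2.90% of all tested genes (log2 fold change 0.65, standard error 0.16, limma adjusted p = 0.200). The aldehyde oxidase Aox1 was at 1.49, 1.73 and 2.48 FPKM with Ang II and 2.91, 3.71 and 3.32 FPKM with Ang II + Tec, again without overlap (log2 fold change 0.58, limma adjusted p = 0.200). Of 18 clock genes 16 were expressed and 0 were called. An unadjusted p-value under 0.05 was seen for 2 of them (18.6% of all tested genes), and 5 had a lower mean with Tec (80.0% of all, median 0.09). The repressor Ciart had a higher mean with Tec that did not pass the adjusted test (log2 fold change 0.59, limma adjusted p = 0.200). The D-box-binding factor Dbp was at 28.3 ± 3.60 FPKM (SD, n = 3) with Ang II and 28.7 ± 2.00 FPKM (SD, n = 3) with Ang II + Tec. The hour at which the hearts were taken was not stated in the sources used here.

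Across libraries, Ang II replicates 1 and 2 and Ang II + Tec replicate 2 were the 3 highest libraries for 8 of the 17 expressed members, as for 42.4% of all tested genes. Ang II replicates 1 and 2 lay above the other 4 libraries for 6 of 17 (49.7% of all). Ang II + Tec replicate 1 was the lowest for 8 of 17 (36.8% of all) and Ang II + Tec replicate 2 the highest for 5 of 17 (17.9% of all). The summed FPKM of the expressed members was 52.5, 57.5 and 42.4 with Ang II and 39.6, 69.9 and 49.2 with Ang II + Tec. Both the lowest and the highest sum were thus in the Ang II + Tec group, and Cyp2e1 made most of that gap.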

How the data were processed

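Heart RNA of 3 Ang II and 3 Ang II + Tec mice was compared. The authors trimmed reads with Cutadapt and deposited FPKM per gene to 2 decimals. The submitters' processing notes name Bowtie 0.12.2, HISAT2 2.0, StringTie 1.3.0 and mm8, but 90.6% of gene coordinates equal those of GENCODE M21 on GRCm38, as do those of 45 of the 47 members. FPKM keep no read totals, so depth is known only in relative terms.

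Genes with at least 0.5 FPKM in at least 3 libraries (13089) were fitted as log2(FPKM + 1) with limma 3.58.1 in R 4.3.3 (trended eBayes), without block or covariate, with Benjamini-Hochberg adjustment over all of them. The fit was checked on simulated data. The members, the gene lists and the tests were chosen with earlier results of these data known. Members were named if they had the 8 lowest p-values, the 8 highest means, no overlap, a place beside the limit or a role list, and of each other list the 2 lowest p-values. One gene that this rule names is not reported here. Other genes named with values were chosen after these were seen or as markers. Shared 50-base stretches were counted over GENCODE M21 transcripts, and upstream sequences came from RefSeq. The 18 alternatives changed the pseudocount, filter, scaling, block, variance estimate and library weights, or left out 1 library.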

Additional observations from a re-analysis of the deposited data

How the results depend on the processing

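Under 12 alternatives to the fit and 6 that left out 1 library, Cyp2b10 and 9 other expressed members (Cyp1a1, Cyp20a1, Cyp26b1, Cyp2j6, Cyp2j9, Cyp2u1, Cyp4b1, Cyp4f16 and Cyp4v3) kept their sign in every setting in which they were tested. For Cyp2b10, Cyp26b1 and Cyp2j9, whose groups did not overlap, only the alternatives that rescaled the libraries could have changed the sign. Depth is known only in relative terms, so no limit of detection is given. The count of called members, 1, which was Cyp2b10 and is a description and no test result, was 0 with a pseudocount of 0.1 or 0.01 and with no filter on low FPKM, 3 with library weights, whose estimation stopped before it converged, and 0 to 4 without 1 library. The count at an unadjusted p-value under 0.05, 3 with Cyp2b10 included, was 1 with a filter at 1 FPKM, which left 13 members, 8 with library weights and 1 to 6 without 1 library. Of all tested genes 24 were called, against 14 with a filter at 0.1 FPKM, 3 with no filter, 3542 with library weights and 2 to 3776 without 1 library. Between 7 and 13 members had a lower mean with Tec, and their median log2 fold change lay between -0.30 and 0.10. The cause of these changes was not tested.

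The other 7 members changed sign. Cyp1b1 ranged from -0.587 to 0.0261 without 1 library. Cyp27a1 turned to 0.20 with the median of ratios and with quantile normalization, 0.0124 with scaling by nuclear FPKM and 0.0056 with library weights, and reached 0.0991 without 1 library, from -0.0937. Cyp2d22 turned to -0.0558 with library weights and ranged from -0.0680 to 0.26 without 1 library. Cyp2e1 turned to -0.20 and -0.30 with pseudocounts of 0.1 and 0.01 and -0.89 with library weights, and ranged from -1.10 to 0.93 without 1 library. Cyp39a1 turned to -0.14 with library weights and ranged from -0.10 to 0.14 without 1 library. Cyp4f13 turned to -0.0592 with library weights and ranged from -0.0257 to 0.0829 without 1 library. Cyp4f17 turned to 0.0561 with the median of ratios and 0.10 with quantile normalization, and ranged from -0.13 to 0.0342 without 1 library. The median of all tested genes moved from -0.17 to 0.0020 with the median of ratios and 0.02 with quantile normalization.

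Deviations from the group means correlated at -0.04, 0.43 and 0.38 between replicates with the same number. Between replicates with different numbers the correlations lay between -0.44 and 0.23. With 3 hearts per group, these values cannot decide whether the numbers pair the samples. A replicate block gave 23 called genes, with none of the 15 members that did not pass the limit through 1 group alone. Of the 17 expressed members, 10 had a lower mean with Tec in that fit.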
